A study of Mus musculus with 10 samples.

Results

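A broad H3K4me2 domain is here a stretch of chromatin in which dimethylation of histone H3 at lysine 4 was called as 1 peak of 20 kb or more in at least 1 library. The peak finder joined neighbouring peaks closer than 2500 bp, so such a peak can hold short gaps. The peaks of 20000 bp or more were taken from each of 8 deposited peak lists, 528 peaks in all among 152121, and were merged where they overlapped. This gave 191 domains among the 30130 merged regions of the series. Width chose the domains, so widths are given below as a description and carry no test.

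The study profiled H3K4me2 by chromatin immunoprecipitation and sequencing in lymphocytes of mice, and its title concerns group 2 innate lymphoid cells (ILC2s) in allergic airway inflammation. Cells were sorted with antibodies and the YFP reporter from mice with inflamed airways and the genotype Gata3-YFP/YFP, so every group carried the same Gata3 reporter allele and the reporter took part in the sort. Cells labelled naive T cells, T helper-2 (Th2) cells and ILC2s gave 2 libraries each, replicate 1 from bronchoalveolar lavage and replicate 2 from the mediastinal lymph node. CD4+ lymphocytes of spleen and of thymus gave 1 library each. The labels name no treatment that sets a group apart, and give no age, no sort gate and no statement on pooling of animals. Because replicate and site are the same label, the spread within a cell type holds the site as well as the sample, and p-values measure only the spread between these samples. A pair of values below gives the lavage library first and the lymph node library second.

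H3K4me2 marks promoters and enhancers that are active or poised. Most such sites are short, some nucleosomes on either side of an open element. Where many elements lie close together, as over genes that define a cell lineage, the mark can run on across a whole gene, and such stretches have been used to find genes of cell identity. In T cells these include the antigen receptor genes and their signalling proteins. ILC2s lack an antigen receptor, respond to the epithelial cytokines IL-33 and IL-25, and secrete type 2 cytokines such as IL-5 and IL-13, as Th2 cells do.

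The sequences of 6 promoters are shown first, chosen from domains whose width or tags set cell types apart (Il5, Il17rb, Il1rl1, Cd5 and Lck) and from a domain broad in every library (Ptprc). Each is the 250 bases before an annotated start, read 5′ to 3′ on the gene's strand, from RefSeq's promoters for GRCm38.p6, whose coordinates are those of mm10. Capitals mark matches on either strand to the motif GATAA of the GATA family, to TGTGGT of the RUNX family and to CGGAAG of the ETS family, all families with members that act in lymphocytes. A GATAA on the other strand reads TTATC.
Il5, chr11:53720544-53720793, plus strand: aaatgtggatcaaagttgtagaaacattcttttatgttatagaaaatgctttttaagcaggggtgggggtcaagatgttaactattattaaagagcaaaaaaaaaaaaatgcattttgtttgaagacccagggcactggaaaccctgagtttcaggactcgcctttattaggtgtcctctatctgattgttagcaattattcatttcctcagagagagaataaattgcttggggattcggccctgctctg
Il17rb, chr14:30008897-30009146, minus strand: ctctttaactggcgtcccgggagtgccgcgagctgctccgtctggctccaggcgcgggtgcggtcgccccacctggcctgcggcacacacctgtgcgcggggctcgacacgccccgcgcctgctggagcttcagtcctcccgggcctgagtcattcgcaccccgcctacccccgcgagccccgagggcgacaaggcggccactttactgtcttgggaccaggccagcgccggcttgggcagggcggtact
Il1rl1, chr1:40439379-40439628, plus strand: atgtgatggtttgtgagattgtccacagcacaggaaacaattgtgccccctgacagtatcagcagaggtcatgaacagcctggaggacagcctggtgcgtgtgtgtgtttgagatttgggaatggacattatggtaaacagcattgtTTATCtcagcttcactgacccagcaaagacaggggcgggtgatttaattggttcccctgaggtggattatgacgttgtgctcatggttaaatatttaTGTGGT
Cd5, chr19:10738975-10739224, minus strand: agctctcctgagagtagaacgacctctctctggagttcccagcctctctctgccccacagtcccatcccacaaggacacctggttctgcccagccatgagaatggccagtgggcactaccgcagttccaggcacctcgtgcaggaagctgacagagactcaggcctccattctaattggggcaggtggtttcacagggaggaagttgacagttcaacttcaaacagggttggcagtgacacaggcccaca
Lck, chr4:129573642-129573891, minus strand: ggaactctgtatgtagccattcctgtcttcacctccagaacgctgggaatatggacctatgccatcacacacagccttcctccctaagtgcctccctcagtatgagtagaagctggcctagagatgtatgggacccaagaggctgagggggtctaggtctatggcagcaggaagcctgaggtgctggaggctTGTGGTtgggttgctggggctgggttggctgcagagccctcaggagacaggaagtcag
Ptprc, chr1:138175127-138175376, minus strand: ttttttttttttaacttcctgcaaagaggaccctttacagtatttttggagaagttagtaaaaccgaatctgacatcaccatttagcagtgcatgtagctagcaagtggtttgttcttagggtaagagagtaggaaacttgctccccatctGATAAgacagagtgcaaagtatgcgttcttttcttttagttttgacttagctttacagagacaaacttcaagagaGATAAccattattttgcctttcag
The 6 windows differ in base composition. The Il17rb window held 27 CpG pairs and those of Il5, Cd5, Il1rl1, Lck and Ptprc held 2, 3, 3, 1 and 2. The Il1rl1 window had 1 GATAA and 1 TGTGGT match, the Ptprc window 2 GATAA matches and the Lck window 1 TGTGGT match. No capitals stand in the windows of Il5, Il17rb and Cd5. Il1rl1, Lck and Ptprc each had another annotated start inside the domain, so their matches depend on the start shown. The window of that other start held 2 GATAA and 0 TGTGGT for Il1rl1, 0 TGTGGT for Lck and 0 GATAA for Ptprc.

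Promoters inside domains did not stand apart in these measures as a description. Of 197 promoters lying inside domains, which belong to 150 protein-coding genes, 21.3% held GATAA on either strand, against 20.5% of all 21263 promoters of protein-coding genes in the table. TGTGGT was in 12.2% against 12.4%, and CGGAAG in 13.7% against 17.1%. The median CpG density was 4.0 per 100 bases in both sets. Of the 20 promoters inside domains broad in ILC2s alone, 25% held GATAA, 20% TGTGGT and 5% CGGAAG, shares that rest on 5, 4 and 1 promoters.

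The libraries held 11870820 to 24945548 tags, and 28.71% to 53.68% of tags lay in called peaks, lowest in the Th2 libraries. The marker genes of the labels were in keeping with the ILC2 and T cell names in part. All 11 T cell markers had a called peak in the naive T, Th2, spleen and thymus libraries, whereas ILC2s had none over Cd3e, Cd4, Themis, Cd5 and Cd6. The other 6 had peaks in ILC2s too, from 65.7 and 66.6 tags over Cd3g to 1037.9 and 917.2 over Zap70. Over Zap70 the Th2 libraries had 1008.6 and 1117.9. Kit and Arg1 had peaks in both ILC2 libraries and in no other airway library. Klrg1 had peaks in lavage naive T and both Th2 libraries as well, and Id2 in every library (1161.7 and 1145.8 tags in ILC2s, 1167.2 in lymph node naive T cells). Of 7 Th2 markers, 6 had a peak in each Th2 and each ILC2 library. Their summed tags were 6008.0 and 5008.9 in Th2 cells and 11813.3 and 11771.7 in ILC2s, so these markers did not set Th2 cells apart from ILC2s. The markers of resting T cells went against the label of the lavage naive T library: over Tcf7 it had 945.0 tags against 3964 in the lymph node library, and over Ccr7 399.6 against 2260. Of markers of other cells, 1 to 5 of 7 B cell genes had a called peak in a library (243.3 to 1751.4 tags in sum), 2 to 4 of 7 myeloid genes (207.2 to 702.4), 2 to 3 of 6 epithelial genes (117.1 to 646.8) and 0 to 2 of 5 natural killer cell genes (0 to 547.2). Ms4a1, Csf1r, Lyz2, Siglecf, Krt8, Krt18, Scgb1a1, Ncr1 and Klrb1c were without a peak in all 8 libraries, while Cebpb, Cd14, Epcam and Cdh1 had one in all 8, and Cd79a had peaks of 498.7 to 1392 tags in 7. No domain lay at a gene of those 4 marker lists, and the part of such cells in the results was not tested. Tags here are normalized tag counts, the tags of a peak scaled to 10000000 tags in the library.

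The naive T libraries also stood apart from each other in their domains. They shared 39 of the 109 domains broad in either, a Jaccard index (shared over either) of 0.358, against 66 of 89 (0.742) among ILC2s and 58 of 91 (0.637) among Th2 cells. The lavage naive T library shared more domains with the lavage Th2 library (0.606) than with its own partner. The lymph node naive T library held 39 of the 41 broad domains of spleen CD4+ cells, or 95.1% of these and 60.9% of its own. The main numbers of domains and of calls that rest on naive T cells are therefore given below without each of these libraries too.

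Broad peaks were rare in every library and rarest in spleen and thymus. There were 84 and 65 for the naive T libraries, 75 and 75 for the Th2 libraries, 76 and 80 for the ILC2 libraries, 41 in spleen and 32 in thymus. They made up 0.154% (thymus) to 0.509% (lymph node Th2) of the peaks of a library and held 1.962% to 5.796% of the tags in peaks. Their median width lay between 22884.5 bp (lavage ILC2s) and 24933 bp (lymph node naive T cells), not far above the 20 kb that the rule asks for, and the widest peak of a library between 60793 and 85039 bp. Because the peak finder joined neighbouring peaks closer than 2500 bp, 1 wider gap is enough to turn a broad peak into pieces. The values at the limit lie close together: the narrowest broad peaks were those of lymph node ILC2s at Tmem50a (20008 bp, 1504.6 tags) and spleen at Zc3hav1 (20022 bp, 2164.8 tags), and the widest peaks left out were those of lavage naive T cells at Icos (19992 bp, 2319.6 tags) and lymph node naive T cells at Lcp1 (19975 bp, 2191.4 tags).

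**Figure D1:**
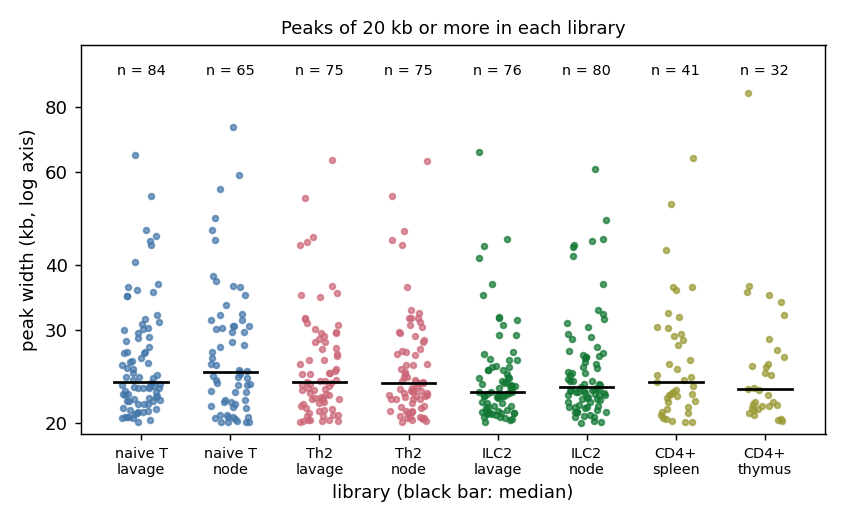
Width of every broad peak in each library, on a log axis in kb, with 1 point per peak. The medians lie between 22884.5 and 24933 bp in all 8 libraries, and the widest single peak, at 85039 bp, is the thymus peak over the T cell receptor alpha constant gene.

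Broad peaks were also denser than other peaks of the same library. Their median density was 80.5 to 127 tags per kb, against 49.97 to 79.4 for all other peaks, and the broad peaks were higher in each of the 8 libraries. The gap was smallest in spleen (95.3 against 68.6) and largest in thymus (127 against 79.4). Density is not part of the rule, but stitching favours dense stretches, so the 2 measures are not independent. Their median fold over the IgG control, as the authors' peak finder gave it, was 34.8 against 29.9 for other peaks in lavage naive T cells and 21.8 in both sets in spleen.

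The airway cell types were compared by the summed tags of all called peaks in a domain, on the log2(tags + 1) scale, with limma and Benjamini-Hochberg adjustment over 11649 regions. Each library was first centred on its median region. The printed tags are not centred, so a log2 difference can depart from what the tags show. A domain passed at an adjusted p under 0.05. The 3 cell types share an estimate of the spread, so the naive T libraries also enter the SE of ILC2s against Th2 cells. A missed threshold there does not show that ILC2s and Th2 cells are alike. Of the 191 domains, 182 had a peak in all 6 airway libraries and were tested. ILC2s were higher than naive T cells at 26 domains and lower at 17, while 2.59% of all regions tested were higher and 1.63% lower. ILC2s were higher than Th2 cells at 11 and lower at 19, with 2.05% and 1.28% over all regions. Th2 cells were higher than naive T cells at 3 (the domain 262293 bp from Gata3, Rad50 with Il5, and Aff4) and lower at 0, with 0.112% and 0.0258% over all regions; 48 of the 182 had an unadjusted p under 0.05. The site is shared by the 3 cell types, and with it as a replicate block none of these 3 passed in limma (adjusted p = 0.1 at each, and 57 domains with an unadjusted p under 0.05). With the block, ILC2s against Th2 cells gave 7 higher and 14 lower, with 0.944% and 0.824% over all regions. A domain enters through the library in which its peak is widest and tags follow width, so the share of domains called is not set against these shares. For the same reason, a call towards the cell type in which a domain is broad is not separate support for its width there.

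Of the 191 domains, 66 were broad in 1 library, 51 in 2, 24 in 3, 12 in 4, 15 in 5, 5 in 6, 12 in 7 and 6 in all 8. The 6 domains broad in all 8 libraries lay at Ptprc, Trbc2, Ets1, Sla, Celf2 and B3gnt2, named after their values were seen. Ptprc encodes CD45, the phosphatase that marks all white blood cells, and Ets1 a transcription factor of lymphocytes. The Ptprc domain (chr1:138124187-138179808, promoter shown above) had a widest peak of 54115 and 55621 bp for the naive T libraries, 53681 and 53980 bp for the Th2 libraries, 24311 and 48617 bp for the ILC2 libraries, 52248 bp in spleen and 34940 bp in thymus. Its summed tags were 6186 and 6811, 5269 and 5924, 4473 and 4849, 5481, and 4938 in the same order. The ILC2 libraries were lowest in tags, and the difference from Th2 cells did not pass the limma test (log2 difference -0.70, SE 0.16, adjusted p = 0.0884). Without centring this difference was -0.26. The Ets1 domain (chr9:32692322-32752488) had a widest peak of 42608 to 59275 bp in 7 libraries and of 33984 bp in thymus.

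The T cell receptor beta constant genes carried a domain in every library, ILC2s included. The Trbc2 domain (chr6:41530031-41562961), which also covers Trbc1, had summed tags of 2226 and 3106 for the naive T libraries, 1747 and 1711 for the Th2 libraries, 2371 and 2607 for the ILC2 libraries, 2266 in spleen and 4111 in thymus. Its log2 difference between ILC2s and naive T cells was 0.10 (SE 0.13, limma adjusted p = 0.761), and that between ILC2s and Th2 cells 0.09 (SE 0.13, adjusted p = 0.724). Without centring the latter was 0.52. The ILC2 values lay between those of the naive T libraries, and both Th2 libraries lay below all 4 of these.

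A further 12 domains were broad in 7 libraries, and the missing library was thymus each time. Among them were Ikzf1, which encodes the lymphoid factor Ikaros, Jak1, a cytokine receptor kinase gene, and Elf1, an ETS family gene. With the 6 above, these made 18 domains broad in both libraries of all 3 airway cell types. None of the 18 passed the test in any of the 3 comparisons of summed tags, with log2 differences between -0.34 and 0.48 for ILC2s against naive T cells, 0.01 and 0.68 for Th2 cells against naive T cells, and -0.70 and 0.09 for ILC2s against Th2 cells. In these comparisons 1, 7 and 5 of the 18 had an unadjusted p under 0.05 in limma. Without the lavage naive T library 3 of the 18 were higher in ILC2s and 6 in Th2 cells than naive T cells, and without either naive T library Ptprc and Cyth1 were lower in ILC2s than Th2 cells. The 18 were chosen for being broad in all 3 cell types, which favours small differences.

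**Figure D2:**
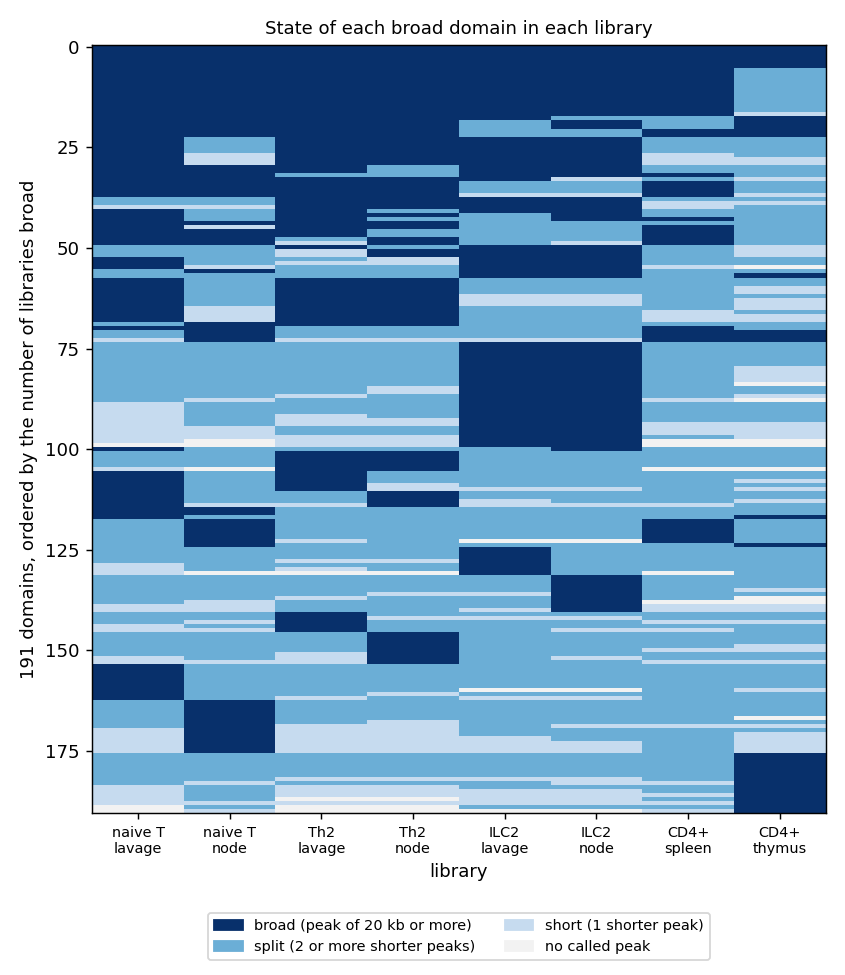
State of the domains in each of the 8 libraries. Each row is a domain and each column a library. Colours show 1 peak of 20 kb or more, 2 or more shorter peaks (split), 1 shorter peak, or no called peak. Rows are ordered by the number of libraries broad. The block broad in the ILC2 libraries and no other has 26 rows. The last of the 27 domains broad in ILC2s alone of the airway types is also broad in thymus and lies apart. The block broad in all 3 airway cell types has 18 rows.

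The cell types differed in how many domains were theirs alone. A cell type counts as broad where both of its libraries were. Of the domains, ILC2s had 66, Th2 cells 58 and naive T cells 39. Broad in ILC2s and in neither library of the other 2 airway types were 27 domains, against 5 for Th2 cells and 3 for naive T cells. A further 7 were broad in naive T and Th2 cells but not ILC2s, 3 in Th2 cells and ILC2s but not naive T cells, and 1, at the Gimap genes, in naive T cells and ILC2s but not Th2 cells. The remaining 112 airway domains were broad in 1 library of some type, and 15 were broad in thymus only. The counts that rest on naive T cells turn on their unlike libraries. Without the lavage library 26 domains were broad in naive T cells alone, 18 in all 3 cell types, 8 in naive T and Th2 cells but not ILC2s, 10 in Th2 cells and ILC2s but not naive T cells, 17 in Th2 cells alone and 30 in ILC2s alone. Without the lymph node library the same counts were 13, 25, 19, 3, 6 and 28. With only the 32 widest peaks taken from each library, ILC2s had 8 domains alone, Th2 cells 4 and naive T cells 4.

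The 27 domains broad in ILC2s alone included several genes of known ILC2 function. They were chosen for wide peaks in ILC2s alone, and tags follow width. That choice favours higher summed tags in ILC2s, so the tests of these domains below are not separate support for it. The widest was at Rora, which encodes a nuclear receptor needed for ILC2 development (chr9:69288463-69354040). Its widest peak was 65577 and 60793 bp for the ILC2 libraries, 18430 and 3554 bp for the naive T libraries, 13424 and 11597 bp for the Th2 libraries, 3493 bp in spleen and 2981 bp in thymus. Its summed tags were 5788 and 6075 for the ILC2 libraries, 1698 and 374.5 for the naive T libraries, and 1122 and 808.7 for the Th2 libraries. The ILC2 libraries were more than 3 times above every other library, yet the difference did not pass the limma test (log2 difference from naive T cells 3.07, SE 0.81, adjusted p = 0.12, and 0.0911 with the site as a block). Without centring, Rora passed against naive T cells (log2 difference 2.89) and against Th2 cells (2.64). The naive T libraries were far apart here.

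Receptors for the epithelial cytokines were next. Il17rb, which encodes a receptor chain for IL-25, shares its domain with Chdh (chr14:30003546-30030418, promoter shown above). Its tags were 2250 and 2339 for the ILC2 libraries, 192.2 and 546.8 for the naive T libraries, 259.3 and 285.6 for the Th2 libraries, 392.5 in spleen and 1688 in thymus. Both ILC2 libraries lay above all others, and thymus, with 2 pieces of at most 9652 bp, came closest. Il1rl1, which encodes the IL-33 receptor ST2, had a domain (chr1:40422920-40448385) of 25247 and 22077 bp for the ILC2 libraries and 18399 and 15510 bp for the Th2 libraries. It had 4309 bp in lavage naive T cells and no called peak in lymph node naive T cells, spleen or thymus. Its tags were 2998 and 2893 for the ILC2 libraries, 1512 and 1089 for the Th2 libraries and 181.4 in lavage naive T cells. It was not tested, because the fit took regions with a peak in all 6 airway libraries.

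At the type 2 cytokine locus, the Il5 gene carried a domain that runs into Rad50 (chr11:53702242-53725276). Il5 encodes the cytokine that supports eosinophils, and the neighbouring Rad50 gene holds the locus control region of the type 2 cytokine genes. The domain was 1 peak of 22256 and 22581 bp for the ILC2 libraries and 3 pieces, of at most 7569 and 7682 bp, in Th2 cells. In naive T cells, spleen and thymus it was 1 peak of 2418 to 3508 bp. Its tags were 1978 and 2224 for the ILC2 libraries, 871.5 and 871.8 for the Th2 libraries, 229.5 and 251.5 for the naive T libraries, 206.5 in spleen and 265.8 in thymus. The 3 airway groups did not overlap and stood in the order ILC2, Th2, naive T. ILC2s were above naive T cells in limma (log2 difference 3.30, SE 0.16, adjusted p = 0.00344), and Th2 cells were too (2.47, SE 0.16, adjusted p = 0.0293, but 0.1 with the site as a block). ILC2s against Th2 cells missed the threshold (0.83, SE 0.16, adjusted p = 0.062, and 0.0984 with the block). The difference was also 0.83 with each naive T library left out in turn, and the spread of those libraries enters this SE. Without centring the difference between ILC2s and Th2 cells was 1.27 and passed. Of the 13 genes on the list of type 2 cytokine and locus genes, Il5 and Rad50 were the 2 with a domain.

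The Aff4 domain, on the same chromosome (chr11:53340963-53363894), had the same order. Aff4 encodes a scaffold of the super elongation complex. Its tags were 1757 and 1966 for the ILC2 libraries, 914.5 and 1017 for the Th2 libraries and 262.9 and 330.3 for the naive T libraries. Its widest peak was 22863 and 22931 bp for the ILC2 libraries, 13202 and 14588 bp for the Th2 libraries and 4511 and 4001 bp for the naive T libraries. Aff4 was higher in ILC2s (log2 difference 2.83, SE 0.14, adjusted p = 0.00344) and in Th2 cells (2.32, SE 0.14, adjusted p = 0.0234, but 0.1 with the site as a block) than in naive T cells.

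Notch2, a receptor of the Notch pathway, carried 2 domains broad in ILC2s alone. The first (chr3:98006651-98034536) had tags of 1444 and 1870 for the ILC2 libraries, 176.4 and 191.2 for the Th2 libraries and 196.9 and 294.2 for the naive T libraries, with widths of 22411 and 27885 bp against at most 3767 bp. ILC2s exceeded naive T cells there (log2 difference 2.94, SE 0.16, adjusted p = 0.00421) and exceeded Th2 cells (2.72, SE 0.16, adjusted p = 0.00761). The second (chr3:98043283-98064991) had 1252 and 1402 tags for the ILC2 libraries, 39.3 and 73.3 for the Th2 libraries and no called peak in naive T cells, spleen or thymus. Tox, which encodes a nuclear factor of lymphoid development, had 1441 and 1526 tags for the ILC2 libraries, 215.0 and 443.9 for the Th2 libraries and 191.0 and 221.4 for the naive T libraries. Against naive T cells it passed the test (log2 difference 3.02, SE 0.33, adjusted p = 0.0134), and against Th2 cells it did not (1.82, SE 0.33, adjusted p = 0.0546). The domains at Mgat5, a glycosyltransferase gene, and Tspan13, a tetraspanin gene, passed both tests of summed tags. In tags per kb Mgat5 passed against naive T cells (limma adjusted p = 0.0202) and not against Th2 cells (0.155). Tspan13 passed neither in tags per kb (limma adjusted p = 0.181 and 0.306).

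A further kind of ILC2-alone domain had long peaks in the other cell types too. Irf4, which encodes a transcription factor of activated lymphocytes, had a widest peak of 20314 and 20026 bp for the ILC2 libraries, just past 20 kb, and of 16359 and 15317 bp for the Th2 libraries. Its tags were 1724 and 1745 for the ILC2 libraries, 1494 and 1319 for the Th2 libraries and 1520 and 1006 for the naive T libraries, and it passed no test. Coro2a and Sgms1 likewise had Th2 peaks of over 15 kb. Nfkb1, which encodes a subunit of NF-kB, was 41109 and 41564 bp wide in ILC2s but had 3 and 4 pieces in Th2 cells with 2103 and 1953 tags, against 3892 and 4374 for the ILC2 libraries. Among the 27 domains, the widest naive T or Th2 peak was under 10 kb in 13 and at least 15 kb in 9.

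The 27 domains as a group were covered in part elsewhere. Called peaks took up a median of 98.4% and 100% of the span in ILC2s, 59.7% and 53.9% of it in the Th2 libraries, 38.8% and 32.3% in the naive T libraries, 25.5% in spleen and 16.2% in thymus. In Th2 cells 20 of the 27 were split and 7 were a single shorter peak in either library, and none was without a peak. In naive T cells 16 and 21 were split, 10 and 4 short and 1 and 2 without a peak. Spleen had none of the 27 as broad and thymus had 1, the larger Znrf1 domain. This describes domains chosen by width.

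**Figure D3:**
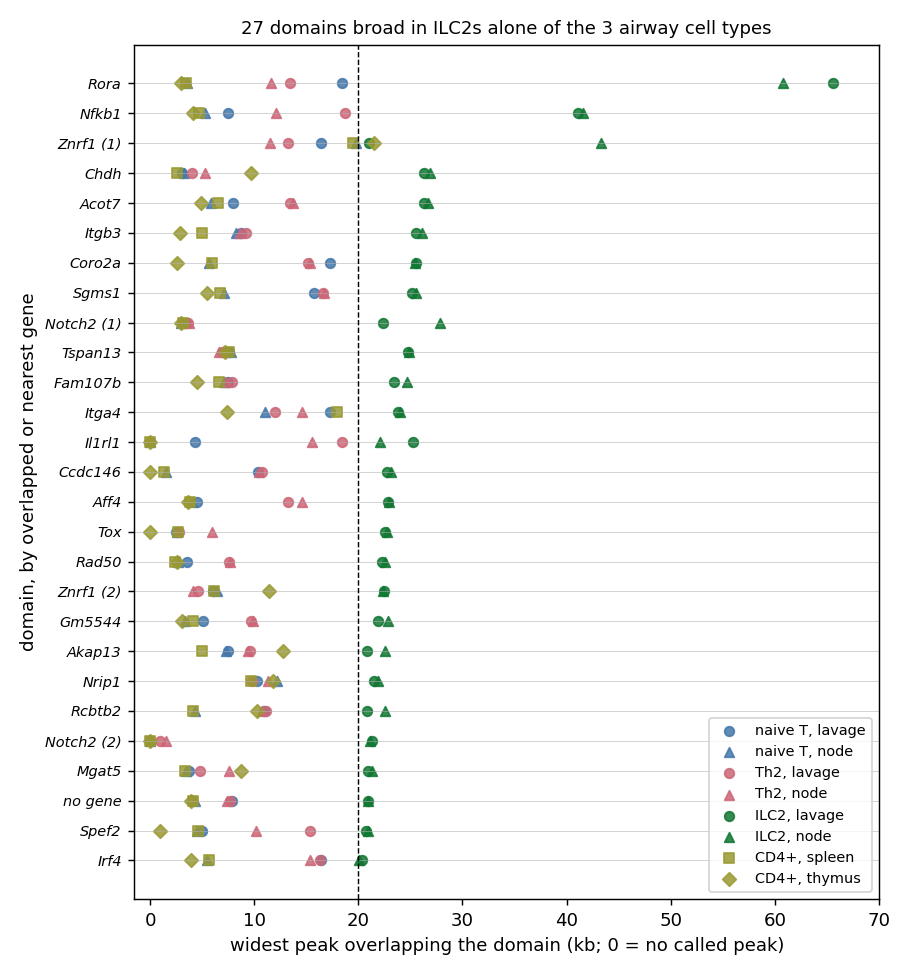
Widest peak in kb at each of the 27 domains broad in ILC2s alone, in every library. The line marks 20 kb; at 13 domains the widest naive T or Th2 peak is under 10 kb and at 9 it is 15 kb or more.

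The 5 domains broad in Th2 cells alone lay at Hivep2, Nck2, the Prdx2 to Junb gene cluster, the H3c13 histone cluster and a stretch with no protein-coding gene within 100 kb. In ILC2s all 5 were split in both libraries, but a median of 89.6% and 88.9% of their span was still called, with widest peaks of 14084 to 17902 bp. The Hivep2 domain (chr10:13963459-13999896) was 36437 and 36283 bp for the Th2 libraries and at most 15311 bp in all other libraries, while its tags were 2388 and 2804 for the Th2 libraries, 2038 and 2277 for the ILC2 libraries and 1909 and 1665 for the naive T libraries. The domain without a near gene (chr2:8940867-8970641) lies 886437 bp from Gata3, its closest protein-coding gene. It had 2017 and 2767 tags for the Th2 libraries, 2362 and 2777 for the ILC2 libraries, 293.0 in lavage naive T cells and no called peak in lymph node naive T cells, spleen or thymus. Of the 5, 4 were tested and 0 passed in any comparison with limma, while 2 (ILC2s against naive T cells), 4 (Th2 against naive T cells) and 2 (ILC2s against Th2 cells) had an unadjusted p under 0.05.

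The Gata3 gene itself was broad in Th2 cells and ILC2s and shorter elsewhere. Gata3 encodes the transcription factor that directs type 2 lymphocytes, and its locus also carries the reporter allele used for the sort. The domain (chr2:9862117-9897252) had a widest peak of 35074 and 29553 bp for the ILC2 libraries, 24907 and 27644 bp for the Th2 libraries, 17660 and 17724 bp for the naive T libraries, 17658 bp in spleen and 14796 bp in thymus. Its tags were 3461 and 3462 for the ILC2 libraries, 2198 and 2411 for the Th2 libraries and 1683 and 2108 for the naive T libraries. ILC2s were higher than naive T cells (log2 difference 1.05, SE 0.14, adjusted p = 0.0191), a call that was lost when the libraries were not centred on their median region. Th2 cells had a log2 difference of 0.90 (SE 0.14, limma adjusted p = 0.0958) from naive T cells that did not pass, and of 0.29 without centring.

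A second domain in the Gata3 neighbourhood was a Th2 domain. It lies 262293 bp from Gata3, the closest protein-coding gene (chr2:9573936-9594785), and was 18862 and 20849 bp wide in Th2 cells, broad in the lymph node library. In the 6 other libraries its widest peak was 1545 to 4781 bp. Its tags were 1030 and 1309 for the Th2 libraries, 134.3 and 177.4 for the ILC2 libraries, 134.2 and 163.3 for the naive T libraries, 146.4 in spleen and 370.9 in thymus. Th2 cells stood above all others. They were higher than naive T cells (log2 difference 3.58, SE 0.19, adjusted p = 0.0234, but 0.1 with the site as a block), and ILC2s were lower than Th2 cells (-3.34, SE 0.19, adjusted p = 0.00761).

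The domains at genes of the T cell receptor complex were the reverse picture. The widest domain of all lay at Trac, the constant gene of the T cell receptor alpha chain (chr14:54152765-54237804). It was 64592 and 73252 bp wide in naive T cells, 63223 and 62985 bp for the Th2 libraries, 63811 bp in spleen and 85039 bp in thymus. In ILC2s it was broken into 4 and 2 pieces of at most 12243 and 12420 bp. Its tags were 6716 and 8514 for the naive T libraries, 5340 and 5282 for the Th2 libraries, 928.5 and 860.6 for the ILC2 libraries, 6026 in spleen and 7852 in thymus. Both ILC2 libraries lay far below all others, with a log2 difference of -2.90 from naive T cells (SE 0.14, adjusted p = 0.00344) and of -3.00 from Th2 cells (SE 0.14, adjusted p = 0.00627). The beta chain domain at Trbc2 was broad in ILC2s and the alpha chain domain was not.

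Of the airway cell types, ILC2s also had the lowest tags at the co-receptor and signalling genes named here. Naive T and Th2 cells did not keep the order seen at Trac throughout, and at Cd28 their libraries overlapped. Cd5, which encodes an inhibitory receptor of T cells, had 3152 and 2529 tags for the naive T libraries, 2216 and 2300 for the Th2 libraries, 83.0 and 128.3 for the ILC2 libraries, 2477 in spleen and 1108 in thymus (chr19:10730318-10765151, promoter shown above). The ILC2 libraries lay below all others (log2 difference from naive T cells -4.58, SE 0.31, adjusted p = 0.00604). Cd28, which encodes the main co-stimulatory receptor, had 2733 and 2375 tags for the naive T libraries, 2426 and 2576 for the Th2 libraries and 327.9 and 243.5 for the ILC2 libraries. Cd2, an adhesion receptor gene, had 2083 and 2665, 1511 and 1415, and 162.8 and 270.7 in the same order. Lck, which encodes the kinase that starts receptor signalling, had 2050 and 2760, 1421 and 1504, and 473.0 and 503.7. Cd28, Cd2 and Lck were all lower in ILC2s than in naive T cells, with log2 differences of -2.99, -3.31 and -2.11 and adjusted p of 0.00963, 0.00604 and 0.00494. Cd247, which encodes the CD3 zeta chain, had a domain of 44647 bp in lymph node naive T cells and no called peak at all within it in ILC2s. Elsewhere over the Cd247 gene the ILC2 libraries had peaks with 724.8 and 880.4 tags.

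**Figure D4:**
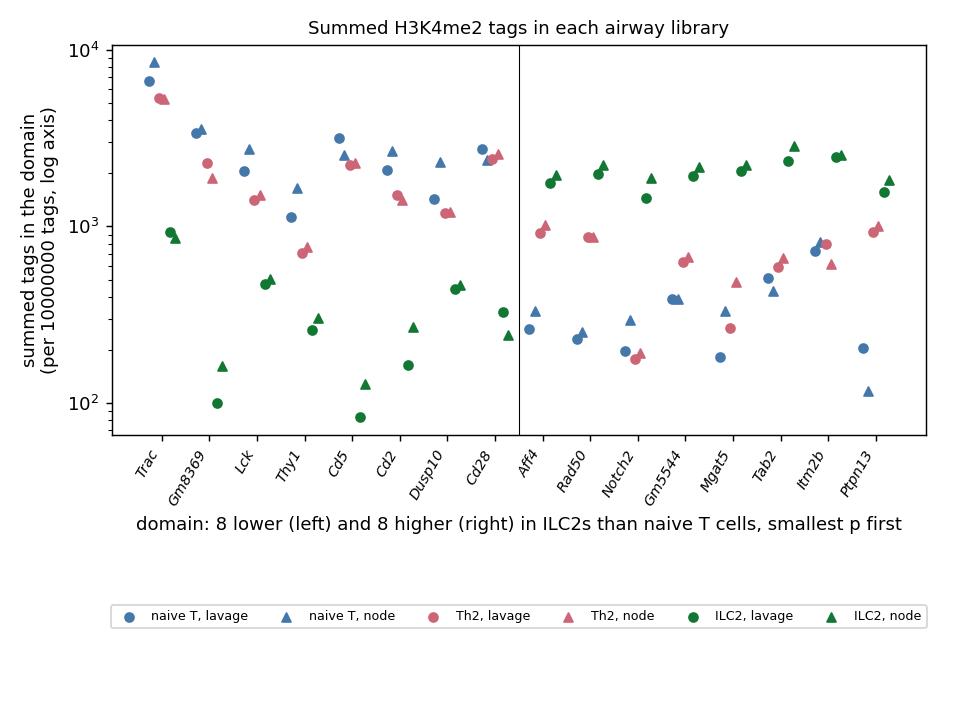
Summed tags per domain in each of the 6 airway libraries, on a log axis, for the 8 domains lower and the 8 higher in ILC2s with the smallest p, against naive T cells. Circles are lavage and triangles lymph node libraries; at all 16 domains both ILC2 libraries lie on the same side of both naive T libraries.

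These genes belong to the list of T cell receptor and identity genes. Of its 25 genes, 12 had a domain, in 13 domains, of which 10 could be tested. Against naive T cells, 0 were higher and 6 lower in ILC2s (Cd2, Cd28, Cd5, Lck, Thy1 and 1 of the 2 Prkcq domains). Of all regions, 2.59% were higher and 1.63% lower. The median log2 difference of the 10 was -1.71. Against Th2 cells, 0 were higher and 7 lower, where 2.05% of all regions were higher and 1.28% lower, and the median was -1.93. Domains were chosen by width, which tags follow, and 0 of the 13 were broad in ILC2s alone. That choice favours lower values in ILC2s, so these counts and medians carry no test of the list. Th2 cells against naive T cells gave 0 limma calls in either direction, with 2 domains at an unadjusted p under 0.05. Without the lavage naive T library the median for ILC2s against naive T cells was -1.8, and without the lymph node library -2.1. For ILC2s against Th2 cells it was -1.93 without either. The 3 that could not be tested were Cd247 and Cd6, with no called peak within the domain in ILC2s, and Cd8b1, broad in thymus only. The comparisons with naive T and with Th2 cells share the ILC2 libraries.

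The list of ILC2 identity genes was less uniform. Of its 28 genes, 10 had a domain, in 12 domains, and 6 of these were broad in ILC2s alone. Of the 10 tested, 4 were above naive T cells in ILC2s (Chdh with Il17rb, Gata3, the first Notch2 domain and Tox), where 2.59% of all regions were. The smaller of the domains at Bcl11b was lower, where 1.63% of all regions were. These domains were chosen by width too, so the counts carry no test of the list. Bcl11b encodes a factor of both T cells and ILC2s, and its smaller domain (chr12:107917981-107938070) had 1258 and 1717 tags for the naive T libraries, 975.6 and 990.7 for the Th2 libraries and 649.8 and 713.1 for the ILC2 libraries. The larger Bcl11b domain (chr12:107957890-108007401) was 46557 and 49122 bp wide in naive T cells and at most 16542 bp in ILC2s, with 4041 and 5281 against 3043 and 3068 tags, and passed no test (adjusted p = 0.183). Against Th2 cells, 2 of the 10 were higher and 1, the smaller Bcl11b domain, lower in limma (adjusted p = 0.0577 with the site as a block). Of all regions, 2.05% were higher and 1.28% lower there. The median log2 difference of ILC2s from naive T cells was 1.62 over the 10 domains. It was 2.25 without the lavage naive T library and 0.98, over 11 domains, without the lymph node one.

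Of the 15 domains broad in thymus only, where every airway peak was under 20 kb by the way they were chosen, 12 were tested. ILC2s were lower than naive T cells at 3 of them (Thy1, Hdac7 and Arl5c), where 1.63% of all regions were lower, and lower than Th2 cells at the same 3, where 1.28% were. They were higher at 0 in limma, and in each comparison 4 had an unadjusted p under 0.05. Without either naive T library the same 3 were lower in both comparisons, and without the lavage one Bcl2l1 was also higher in ILC2s than naive T cells. With the site as a block Arl5c missed the threshold (adjusted p = 0.072 against naive T cells and 0.0676 against Th2 cells). The domain near Thy1 (chr9:44010140-44035062), a surface glycoprotein gene of T cells that lies 8322 bp away, had 1134 and 1655 tags for the naive T libraries, 709.4 and 768.3 for the Th2 libraries, 258.1 and 300.9 for the ILC2 libraries, 1230 in spleen and 2294 in thymus. The ILC2 libraries lay below all others (log2 difference from naive T cells -2.12, SE 0.14, adjusted p = 0.00595).

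The balance of higher and lower calls depended on how the libraries were scaled. The fit centres each library on its median region. Without centring, on the deposited scale, ILC2s were higher than Th2 cells at 23 domains and lower at 15 (60.5% of calls higher, against 36.7% when centred), where 6.34% of all regions were higher and 0.919% lower. Th2 cells were higher than naive T cells at 5 and lower at 2 (71.4% against 100%), where 0.326% of all regions were higher and 6.29% lower. The Th2 libraries, which had the smallest share of tags in peaks, were lower over all regions on the deposited scale, with a median log2 difference of -0.61 from naive T cells, and ILC2s were 0.42 above Th2 cells. The share of tags in peaks moves with this shift, and its part in the result was not tested.

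Fewer domains passed in tags per kb than in summed tags. Domains were chosen by width and summed tags follow it, and the shares of length and density in a call were not tested. In tags per kb of called peak, ILC2s were higher than naive T cells at 6 domains (Mgat5, Ptpn13, Nr3c1, Chdh with Il17rb, Akap13 and Tox), where 0.472% of all regions were, and lower at 2 (Gm8369 and Lck), where 0.189% were. For ILC2s against Th2 cells the counts were 0 and 0, with 0% and 0.0343% over all regions, and 49 domains had an unadjusted p under 0.05. For Th2 cells against naive T cells they were 0 and 0, with 0% and 0%, and 54 domains had an unadjusted p under 0.05. At Rad50, ILC2s held 3.30 more on the log2 scale in summed tags than naive T cells but 0.48 in tags per kb (adjusted p = 0.0761), and at Trac the difference of -2.90 became -0.70 (adjusted p = 0.0704).

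Single libraries decided the number of calls. Without either ILC2 library, 0 domains passed in any of the 3 comparisons with limma. In both of these fits 57 had an unadjusted p under 0.05 for ILC2s against naive T cells and 29 for Th2 against naive T cells, and for ILC2s against Th2 cells 56 had one without the lavage and 52 without the lymph node library. Without either Th2 library, 10 were higher and 10 lower in ILC2s than naive T cells and 0 passed in the other comparisons, with 28 and 26 (Th2 against naive T cells) and 62 and 60 (ILC2s against Th2 cells) at an unadjusted p under 0.05. Without the lavage naive T library the calls rose to 74 higher and 30 lower for ILC2s against naive T cells, and to 82 and 16 for Th2 cells against naive T cells, with 11.5% and 5.64%, and 14.1% and 9.63%, over all regions. Without the lymph node naive T library they were 31 and 26 (4.86% and 3.06% over all regions), and 6 and 0 (0.181% and 0.0164%). For ILC2s against Th2 cells, 27 were higher and 60 lower without the lavage naive T library (7.61% and 6.19% over all regions), and 26 and 60 without the lymph node one (7.91% and 6.41%). None of the 35 calls with the smallest p (up to 8 for each comparison and direction) changed direction in any of these fits. They were chosen by their limma p in these same libraries, which favours an unchanged direction. A fit with 1 library in a group assumes that it varies like the others.

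The domains at which the naive T libraries parted included genes of resting and of activated T cells. Broad in lavage naive T and both Th2 libraries but not in lymph node naive T cells were 20 domains, among them Ctla4, Il2ra, Cd28, Cd5 and Rbpj. Cdk17, Vps54, Vmp1, Picalm and Lcp1, genes on none of the lists here, were among the 20 too. Ctla4 encodes an inhibitory receptor of activated T cells. Its domain (chr1:60873862-60921063) had 3728 tags in lavage and 619.1 in lymph node naive T cells, 2949 and 3284 for the Th2 libraries, 809.4 and 763.5 for the ILC2 libraries, 642.4 in spleen and 163.9 in thymus. Il2ra, which encodes the high-affinity chain of the IL-2 receptor, had 1960 and 910.0 tags for the naive T libraries, 2128 and 2229 for the Th2 libraries and 2710 and 2914 for the ILC2 libraries. At both domains the lavage naive T library stood with the Th2 libraries and the lymph node library with spleen. The tags at Cd28 and Cd5, given above, differed less between the naive T libraries than those at Ctla4 and Il2ra.

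Broad in lymph node naive T cells and spleen, but not in lavage naive T or Th2 cells, were 9 domains, among them Tcf7, Satb1 and Cd247. Evl, Ripor2, Smad7, Fam78a and Fam169b, genes on none of the lists here, were among the 9 too. Tcf7 encodes the factor TCF-1 of resting T cells. Its domain (chr11:52261788-52287001) had 945.0 tags in lavage and 3964 in lymph node naive T cells, 134.0 and 182.8 for the Th2 libraries, 259.0 and 427.9 for the ILC2 libraries, 2984 in spleen and 3439 in thymus. Satb1, which encodes a chromatin organiser of thymocytes and T cells, had 971.7 and 4987 tags for the naive T libraries, 685.7 and 1214 for the Th2 libraries, 562.8 and 583.8 for the ILC2 libraries, 3387 in spleen and 4611 in thymus. Lef1 and Bach2, both genes of resting T cells, were broad in the lymph node naive T library alone. The list of naive and resting T cell genes had 6 of its 17 genes in domains, and 0 of the 6 were called in any comparison, while 5, 1 and 1 had an unadjusted p under 0.05 in limma (ILC2s against naive T, Th2 against naive T, ILC2s against Th2 cells). The median log2 difference of ILC2s from naive T cells was -1.60. It was -2.35 without the lavage naive T library and -0.86 without the lymph node one. For Th2 cells against naive T cells these medians were -1.4 and -0.05. Cell composition, activation and site cannot be told apart here, because each naive T library is 1 site.

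Of the other lists, the activation and signalling genes had 6 of 27 genes in 5 domains. There were 0 calls in any comparison and 1, 1 and 2 domains at an unadjusted p under 0.05 in the same order. Their median log2 difference from naive T cells was 0.28 in ILC2s and 0.8 in Th2 cells. These medians turned on the naive T library used. They were 0.76 and 1.52 without the lavage naive T library, and -0.22 and 0.15 without the lymph node one. The list of lymphoid transcription factor genes had 12 of 35 genes in 13 domains. Of these, Gata3 and Nfkb1 were higher and the smaller Bcl11b domain and Nfatc1 lower in ILC2s than in naive T cells. Of all regions, 2.59% were higher and 1.63% lower there. The median log2 difference of the 13 from naive T cells was 0.17 in ILC2s and 0.33 in Th2 cells. It was 0.47 and 0.84 without the lavage naive T library, and 0.13 and 0.09 without the lymph node one. Ikzf2, which encodes Helios, was broad in the lavage naive T library (40455 bp) and the lymph node ILC2 library (20119 bp), with 2722 and 1291 tags for the naive T libraries, 1226 and 1361 for the Th2 libraries and 3405 and 3465 for the ILC2 libraries. Batf, a gene of effector lymphocytes, was broad only in the lymph node Th2 library, at 22738 bp. Fli1, an ETS family gene, was broad only in lymph node naive T cells, at 27908 bp.

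Thymus had 15 domains of its own, and spleen had none that no other library shared. Those of thymus included genes of developing T cells. Dntt encodes the terminal transferase of receptor gene rearrangement. Its domain (chr19:41012945-41040419) was 27474 bp wide in thymus with 3439 tags. It had 4 pieces with 755.6 tags in lymph node naive T cells and 3 with 509.1 tags in spleen, 83.4 and 93.7 tags for the ILC2 libraries, and no called peak in lavage naive T or Th2 cells. Cd8b1, which encodes a chain of the CD8 co-receptor, had 3767 tags in thymus, 104.4 in lymph node naive T cells and 82.0 in spleen, and no called peak in the other 5 libraries. Ccr9, a chemokine receptor gene of thymocytes, had 2788 tags in thymus and 77.5 to 326.6 elsewhere. Not all 15 were marked by such contrasts: Mier1 had 3274 tags in thymus and 850.0 to 1195 elsewhere, and Btg2 2955 against 815.7 to 2036. The 15 were 20233 to 27474 bp wide in thymus, and Cd8b1 was among them in a sample labelled CD4+.

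**Figure D5:**
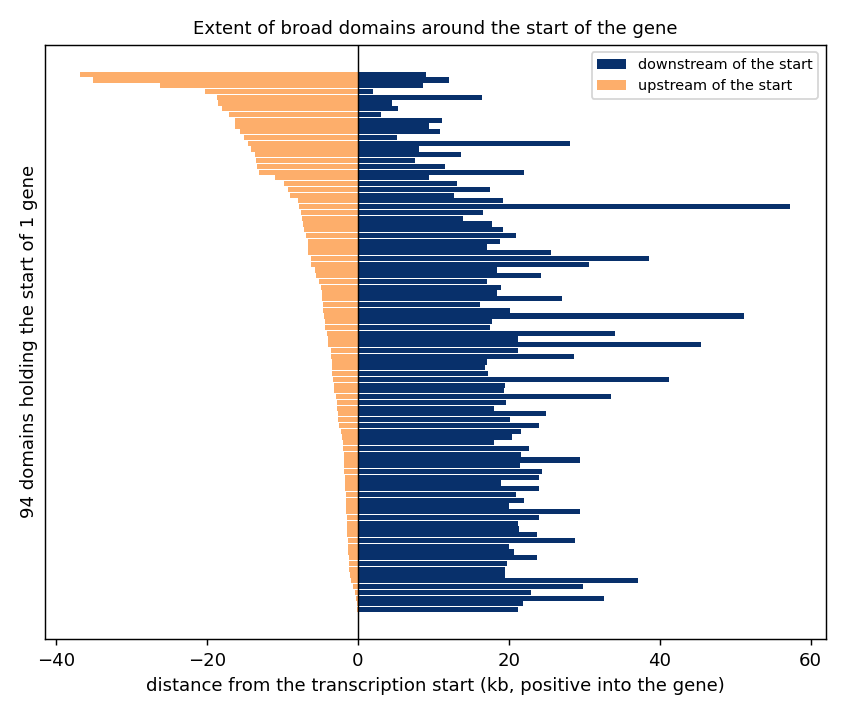
Bases upstream and downstream of the transcription start for the 94 domains that hold the start of 1 gene, drawn as bars from the start site in kb. The median reach is 19987 bp downstream and 3987 bp upstream.

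Domains lay over genes and ran mainly into the gene body. Of the 191, 179 overlapped a protein-coding or receptor constant gene, 7 had one within 100 kb and 5 had none. A start site lay inside 113 (59.2%), against 30.1% of the other merged regions, which are much shorter (median 2491 bp). Per length the order was the reverse: domains held 2.7 starts per 100 kb and other regions 9.8. The overlapped genes were long, with a median of 68769 bp against 17140 bp over all genes considered. Long domains overlap long genes more readily, and length was not matched.

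Among the 94 domains with the start of 1 gene, a median of 85.7% of the span lay downstream of that start, against 63.4% in 7972 other regions with 1 start. The Ptprc domain reached 51118 bp downstream and 4503 bp upstream, and that of Satb1 34066 and 4133 bp. Most of the span lay downstream in 83.0% of domains and 83.6% of other regions, so the direction was common to both and the reach was longer in domains. A few ran the other way. The Cd5 domain reached 26177 bp upstream and 8656 bp downstream, and that of Ctla4 35163 and 12038 bp. The Gata3 domain was nearly even, with 18652 bp upstream and 16483 bp downstream. The histone gene clusters made domains of another kind, with up to 9 short genes in one.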

How the data were processed

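H3K4me2 was measured in 8 libraries of sorted mouse lymphocytes. Bowtie, HOMER and the build mm10 stand in the submitters' processing notes, without versions. HOMER findPeaks was run by the authors on each library by itself, per the file headers, with a peak size of 1000 bp, neighbours closer than 2500 bp joined into regions, a false discovery rate of 0.001 and a 4-fold excess over an IgG library (thymus IgG for all lists except that of spleen). By their labels the IgG samples carry the H3K4me2 antibody, against their titles, so what the deposited fold (ratio) over control means is unsure. The deposited signal is a normalized tag count per 10000000 tags. The tag minimum came to about 40 per 10000000 tags in every library, so absence means under that minimum.

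Peaks of 20000 bp or more were merged over libraries by overlap, and every other peak was merged by overlap or given to the domain it overlapped most. The members and gene lists were chosen with earlier results of these data known. In a domain, a library was broad, split (2 or more peaks, none of 20000 bp), short (1 peak) or without a peak. Summed tags were fitted with limma 3.58.1 (R 4.3.3) on log2(tags + 1), centred on the library's median, in the 6 airway libraries, for regions with a peak in all 6, at an adjusted p of 0.05. Spleen and thymus, with 1 library each, stayed out. Intervals for counts of reads were not computed, since raw tag counts per peak were not used here. Tested on simulated data for ILC2s against naive T cells (11649 regions), this fit recovered 28% of changes of 1 and 74% of changes of 2 on the log2 scale. Domains took the name of the protein-coding or receptor constant gene they overlapped most, else of the nearest within 100 kb, from RefSeq's GRCm38.p6 table, which has no exons. Named domains were the 15 widest, the 8 with the smallest p in each comparison and direction, the 8 widest of each class broad in 1 cell type, all at genes of the lists, and 2 peaks on each side of 20000 bp; others are named for what the text says of them after their values were seen. A few genes of the lists are not reported here. Alternatives were other widths, an equal number of peaks per library, merging within 2500 bp, tags per kb, no centring, a peak in at least 2 libraries, a pseudocount of 10, a replicate block and leaving out each library.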

Additional observations from a re-analysis of the deposited data

Results flagged for a closer look

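Vps54, which encodes a subunit of a tethering complex for transport to the Golgi, was the 1 domain of 183 whose tags differed by more than 1 on the log2 scale between ILC2s and naive T cells in both sites but in opposite directions. In the lavage the log2 difference was -1.08 and in the lymph node 1.33. Its tags were 2154 and 574.9 in naive T cells, 1838 and 1878 in Th2 cells and 1031 and 1120 in ILC2s, so the naive T libraries differ and the ILC2 libraries do not. Each site has 1 library per cell type, so the difference between sites was not tested. For Th2 against naive T cells and for ILC2s against Th2 cells 0 domains did so. Groups of 2 libraries are too small for a search for outlying samples.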

How the results depend on the processing

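The number of domains followed the width asked for. It was 191 at 20000 bp, 419 at 15000 bp, 41 at 30000 bp and 108 with the 32 widest peaks of each library, and 178 to 187 without single libraries. Domains broad in ILC2s alone numbered 27, and 51, 3 and 8 under the same 3 settings, with 28 to 36 without single libraries. Those of Th2 cells alone went from 5 to 2 at 30000 bp and to 5 to 17 without single libraries, and those of naive T cells alone from 3 to 11 at 15000 bp and to 3 to 26. For ILC2s against naive T cells, 26 domains were higher and 17 lower. The counts were 6 and 2 in tags per kb, 52 and 31 at 15000 bp and 4 and 5 at 30000 bp, and 27 were lower where a peak in 2 libraries was enough. For Th2 against naive T cells the 3 higher calls became 0 in tags per kb (54 domains with an unadjusted p under 0.05), 0 at 30000 bp (8), 5 at 15000 bp, and 5 higher and 2 lower with no centring. For ILC2s against Th2 cells, 11 higher and 19 lower became 0 and 0 in tags per kb (49 with an unadjusted p under 0.05), 2 and 5 at 30000 bp, 24 higher at 15000 bp, 23 higher with no centring and 42 lower where a peak in 2 libraries was enough. Wider and narrower widths change how many domains exist; the cause of the other changes was not tested.

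Without single libraries the calls ranged from 0 to 74 higher and 0 to 30 lower for ILC2s against naive T cells, 0 to 82 and 0 to 16 for Th2 against naive T cells, and 0 to 27 and 0 to 60 for ILC2s against Th2 cells. The replicate numbers name the site. Deviations of same-numbered libraries correlated at 0.107 (naive T and Th2), -0.012 (naive T and ILC2) and 0.258 (Th2 and ILC2) over all regions and at 0.243, 0.197 and 0.177 over domains. The labels give a site, not a shared animal or day, and each cell type has 2 libraries, so the fit left the number out. With the replicate number as a block in limma, 24 domains were higher and 16 lower in ILC2s than naive T cells (2.23% and 1.47% over all regions). For Th2 against naive T cells 0 and 0 were (57 with an unadjusted p under 0.05, and 0% and 0% over all regions). For ILC2s against Th2 cells 7 and 14 were (0.944% and 0.824% over all regions). Of the 35 calls with the smallest p, 31 missed the threshold in tags per kb. None changed direction where it could be compared, which was 29 of the 35 at 15000 bp and 5 at 30000 bp. The choice by limma p in these same libraries favours an unchanged direction.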
